A study of Mus musculus with 27 samples.

Results

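The genes described here are 9 symbols used as markers of the epicardium and of other mesothelia: Wt1, Aldh1a2, Upk3b, Upk1b, Msln, Lrrn4, Krt19, Krt18 and Krt8. They were taken by symbol from the raw counts of 22855 genes. A row was found for 8 of the 9, and Krt8, which encodes the keratin that pairs with the product of Krt18, was not analysed here. All 8 passed the filter on low counts in whole heart and in the joint fit of both tissues, and 7 passed it in fibroblasts, where Msln did not.

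RNA-Seq libraries of polyA RNA were made from C57Bl/6 mice of 5 ages, newborns at postnatal day 1, young mice of 4 weeks, adults of 14 weeks, and older mice of 1 year and of 1.5 years. There were 15 whole heart libraries, 3 at each age, and 12 libraries of cardiac fibroblasts, 3 at postnatal day 1 and at 4 weeks and 2 at each later age. The fibroblasts were sorted by flow cytometry on PDGFRα, a receptor of cardiac fibroblasts, from ventricles that had been digested after the atria and valves were taken off. The methods describe more fibroblast sets than these at each later age, each from different hearts, and the others were not analysed here. The paper states that the hearts that gave the fibroblasts were sequenced as well, so both tissues may share animals, and the labels do not show which. The sources do not say whether the tissue labelled whole heart held the atria or how many hearts made up a fibroblast set.

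The epicardium is the mesothelium that covers the heart, a single sheet of flat cells joined by tight contacts and held by keratin filaments. In the embryo some of its cells leave the sheet and give rise to fibroblasts and mural cells of the coronary vessels, and the epicardium makes retinoic acid and growth factors for the muscle beneath. Wt1 encodes a zinc finger transcription factor of the epicardium that is also made by some endothelial cells. Aldh1a2 encodes an enzyme that makes retinoic acid from retinal. Upk3b and Upk1b encode uroplakins, membrane proteins that mesothelium shares with bladder urothelium. Msln encodes mesothelin, a protein anchored to the cell surface, and Lrrn4 a membrane protein with leucine-rich repeats. Krt19 and Krt18 encode acidic keratins of simple epithelia.

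The promoters of 4 of these genes are shown, those matched in the promoter table used. They set the gene that fibroblasts carry at high level (Aldh1a2) beside 3 found almost only in whole heart (Upk3b, Krt18, Lrrn4). Each runs from 250 bases before to 50 bases after the RefSeq start, read 5′ to 3′ along the gene, from the RefSeq promoter table for GRCm38.p6. Capitals mark matches, on either strand, to 4 motifs: CATTCC (TEAD factors), GCGTGGG (EGR and WT1 factors), GGGCGG (GC box) and AGGTCA (the core site of many nuclear receptors). The windows are chr5:136038246-136038545 (+) for Upk3b, chr15:102027966-102028265 (+) for Krt18, chr2:132880813-132881112 (-) for Lrrn4 and chr9:71215539-71215838 (+) for Aldh1a2.
Upk3b: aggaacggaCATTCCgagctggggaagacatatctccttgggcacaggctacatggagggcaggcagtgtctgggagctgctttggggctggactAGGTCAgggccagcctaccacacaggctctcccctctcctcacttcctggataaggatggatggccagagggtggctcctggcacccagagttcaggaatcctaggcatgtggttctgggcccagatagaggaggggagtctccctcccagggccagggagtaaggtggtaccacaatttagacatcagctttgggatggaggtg
Krt18: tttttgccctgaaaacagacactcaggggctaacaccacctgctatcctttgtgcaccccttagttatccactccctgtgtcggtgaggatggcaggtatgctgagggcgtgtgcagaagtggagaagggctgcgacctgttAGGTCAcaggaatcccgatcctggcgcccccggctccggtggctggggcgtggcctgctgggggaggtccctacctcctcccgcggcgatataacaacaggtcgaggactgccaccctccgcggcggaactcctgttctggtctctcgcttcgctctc
Lrrn4: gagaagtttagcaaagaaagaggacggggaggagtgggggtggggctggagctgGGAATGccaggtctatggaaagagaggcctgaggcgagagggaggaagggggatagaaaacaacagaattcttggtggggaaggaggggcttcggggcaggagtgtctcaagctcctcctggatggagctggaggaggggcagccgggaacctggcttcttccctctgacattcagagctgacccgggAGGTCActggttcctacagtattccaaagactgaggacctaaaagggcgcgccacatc
Aldh1a2: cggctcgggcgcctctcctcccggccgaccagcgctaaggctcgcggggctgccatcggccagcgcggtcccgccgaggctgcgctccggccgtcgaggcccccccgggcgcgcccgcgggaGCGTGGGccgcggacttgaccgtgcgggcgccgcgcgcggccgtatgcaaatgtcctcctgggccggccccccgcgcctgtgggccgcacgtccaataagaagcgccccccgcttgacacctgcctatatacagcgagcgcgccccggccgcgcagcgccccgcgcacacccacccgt
The Aldh1a2 window was 78.0% G and C with 50 CpG dinucleotides, against a median of 52.7% and 7 over all promoters of the table. The Upk3b, Krt18 and Lrrn4 windows held 58.7%, 61.3% and 58.0% G and C and 2, 17 and 7 CpG. The TEAD motif was in the windows of Upk3b and Lrrn4 and in 14.7% of all 32851 promoters. The nuclear receptor core site was in those of Upk3b, Krt18 and Lrrn4 and in 16.3% of all. The EGR and WT1 motif was in that of Aldh1a2 and in 5.04% of all, and the GC box, held by 35.7% of all, had no match in these 4. A match describes the letters only.

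The libraries held between 46091271 and 76758831 counted reads. Levels are given as CPM, counts relative to TMM-scaled library size, on a scale set within each tissue unless stated. A floor of 3 counts in a library, 0.0368 to 0.0519 CPM in fibroblasts, marks what is read as not detectable. It covers counting error only. The 7 fibroblast markers fixed for a check of the sort, among them Pdgfra and Col1a1, summed to 32209 to 64367 CPM in fibroblast libraries and 1319 to 2835 CPM in whole heart. The 5 markers of glandular and lung epithelium with a row summed to at most 1.05 CPM in any library of either tissue. In bulk samples fewer cells of a type and less RNA per cell cannot be told apart. Xist was at most 0.570 CPM in every library of 14 weeks and 1 year and Ddx3y at most 0.397 CPM in every library of 1.5 years. Sex and age thus cannot be told apart in a comparison of 1.5 years with 14 weeks or with 1 year. Every library of postnatal day 1 and 4 weeks carried both transcripts, Xist at 6.48 CPM or more and Ddx3y at 1.64 CPM or more. Such a library may hold RNA of more than a single mouse, so the spread between libraries may not be alike across ages. A whole heart library is called a heart below. Comparisons of 1.5 years with postnatal day 1 set libraries with both transcripts against libraries nearly without Ddx3y. Those of 14 weeks with 4 weeks set libraries with both against libraries nearly without Xist, and tests over all 5 ages include every kind. The part of sex in all of these was not tested.

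The clearest difference between the tissues was in Aldh1a2, which was higher in fibroblasts, and in the surface and keratin genes, most of which were at or under the floor there. Fibroblast libraries carried Aldh1a2 at 267, 279 and 299.8 CPM at postnatal day 1, 147, 150.0 and 68.7 CPM at 4 weeks, 83.2 and 100.1 CPM at 14 weeks, 285 and 195 CPM at 1 year, and 156 and 92.4 CPM at 1.5 years. Whole heart carried it at 12.1, 20.7 and 26.3 CPM at postnatal day 1, 10.4, 12.9 and 19.98 CPM at 4 weeks, 5.20, 8.46 and 8.79 CPM at 14 weeks, 9.01, 12.7 and 6.52 CPM at 1 year, and 8.83, 12.9 and 8.18 CPM at 1.5 years. The lowest fibroblast library was above the highest whole heart library, also on the joint scale, as for 8.05% of the 20650 genes tested in the joint fit. On the joint scale the mean was 248 ± 14.8 CPM (SD, n = 3) in fibroblasts and 21.9 ± 7.81 CPM (n = 3) in whole heart at postnatal day 1, 11.3-fold higher. The log2 fold change of fibroblasts over whole heart was, in order of age, 3.50 (SE 0.37), 2.74 (SE 0.36), 3.26 (SE 0.38), 4.37 (SE 0.40) and 3.27 (SE 0.38). All 5 passed edgeR's quasi-likelihood test with Benjamini-Hochberg adjustment, the 1-year difference with an adjusted p of 4.1e-09.

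Upk3b, Upk1b, Msln, Lrrn4, Krt19 and Krt18 were found in whole heart and only in scattered fibroblast libraries. In fibroblasts 55 of the 72 values of these 6 genes were at or under 3 counts, 42 of them 0, and in whole heart 86 of 90 values were above 3 counts. Their summed level in fibroblasts was 7.39, 0.922 and 0.0440 CPM at postnatal day 1, 0.0134, 0.0269 and 1.01 CPM at 4 weeks, 1.59 and 1.09 CPM at 14 weeks, 0.745 and 0.0161 CPM at 1 year, and 0.0325 and 0.951 CPM at 1.5 years. Libraries of the same age thus differed widely, and replicate 1 of postnatal day 1 stood apart with 5 of the 6 genes above the floor. In whole heart the sum was 68.1, 103 and 59.7 CPM at postnatal day 1, 23.7, 23.3 and 49.5 CPM at 4 weeks, 22.1, 10.2 and 23.6 CPM at 14 weeks, 19.5, 64.3 and 38.4 CPM at 1 year, and 30.6, 29.8 and 29.3 CPM at 1.5 years. Every whole heart library was above every fibroblast library, each on the scale of its own tissue. The 6 genes are the members left after Wt1 and Aldh1a2, which were above the floor in every fibroblast library. The gap in the sum is thus tied to how the 6 were picked, and it was not set against sums of other genes.

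**Figure D1:**
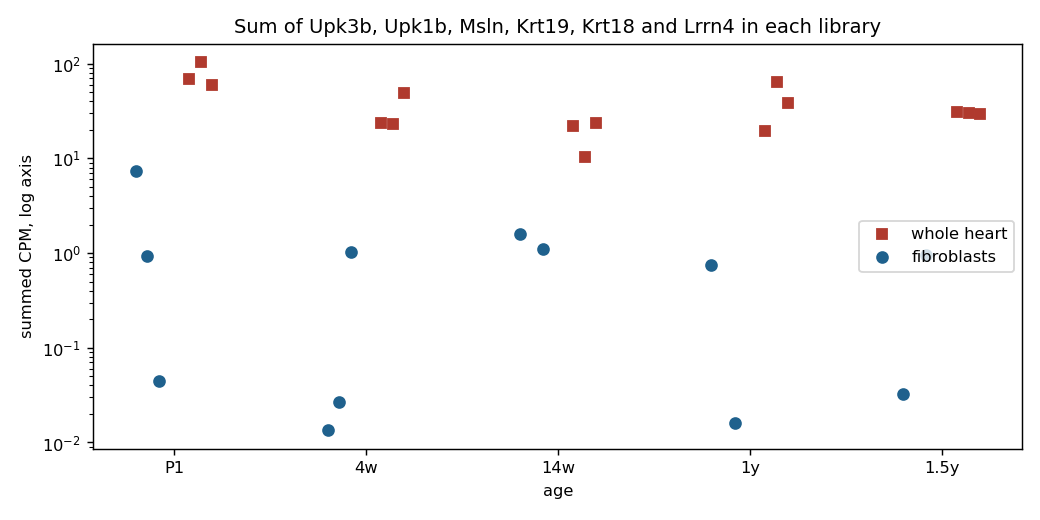
Summed CPM of Upk3b, Upk1b, Msln, Krt19, Krt18 and Lrrn4 (log axis) in each library by age, with circles for fibroblasts and squares for whole heart. The fibroblast libraries lie between 0.0134 and 7.39 CPM and the whole heart libraries between 10.2 and 103 CPM.

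Msln and Upk3b were the 2 members whose every fibroblast library lay below every whole heart library, as for 10.1% of genes tested. Msln had 0 counts in all 3 fibroblast libraries of postnatal day 1, against 23.7 ± 10.3 CPM (SD, n = 3, joint scale) in whole heart, at least 648-fold lower when set against the floor of 3 counts per library. This bound covers counting error only. Upk1b and Krt18 also had 0 counts in some whole heart libraries beside up to 334 counts in another of the same age, so a count of 0 need not bound the level in the tissue. Against the same floor Msln was at least 323-fold lower at 4 weeks, 230-fold lower at 1 year and 305-fold lower at 1.5 years. At 14 weeks its fibroblast libraries had 48 and 4 counts and the log2 difference was -3.77 (SE 0.89). Upk3b had 58, 1 and 0 counts in fibroblasts at postnatal day 1 and was 140-fold lower than in whole heart there, at least 373-fold lower at 4 weeks and at least 302-fold lower at 1.5 years. Both genes passed edgeR's quasi-likelihood test at all 5 ages, with Benjamini-Hochberg adjusted p of 2.3e-06 for Msln and 0.000105 for Upk3b at 1.5 years. Msln passed the filter on low counts in whole heart and in the joint fit but not in fibroblasts. The joint filter let it in by its whole heart counts, so its calls add no support beyond the counts themselves. Without fibroblast replicate 4 of 14 weeks the call of Upk3b at that age was lost (log2 difference -3.85, adjusted p = 0.116).

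The other 4 passed the test at some ages. With Aldh1a2 as the one member higher and all others lower, 3 of 8 members were called at postnatal day 1, where 32.3% of all genes were. The counts were 6 at 4 weeks (36.1% of genes), 4 at 14 weeks (34.8% of genes), 6 at 1 year (32.4% of genes) and 5 at 1.5 years (38.9% of genes). Msln, let in by its whole heart counts, was among those called at each age. At postnatal day 1, Lrrn4 had 219, 0 and 1 counts in fibroblasts, Krt18 had 96, 0 and 0, and Upk1b had 102, 0 and 2, so that a single library held nearly all of their reads. Without that library, replicate 1, these 3 genes passed as well and 6 members were called. Without fibroblast replicate 4 of 14 weeks 2 were called, without replicate 5 of 1 year 3, and without either fibroblast replicate of 1.5 years 3. A lone library left at an age was taken to vary like the other groups.

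Wt1 did not differ between the tissues by the test at any age. Its level in fibroblasts was 25.0, 10.2 and 15.3 CPM at postnatal day 1, 2.87, 5.12 and 21.2 CPM at 4 weeks, 9.77 and 5.76 CPM at 14 weeks, 1.53 and 3.98 CPM at 1 year, and 1.95 and 13.4 CPM at 1.5 years. In whole heart it was 13.4, 12.4 and 12.6 CPM at postnatal day 1, 9.50, 10.7 and 13.4 CPM at 4 weeks, 6.36, 4.77 and 5.91 CPM at 14 weeks, 5.11, 4.33 and 6.94 CPM at 1 year, and 10.9, 4.88 and 4.67 CPM at 1.5 years. The tissues overlapped at every age but 1 year, where both fibroblast libraries were below the 3 hearts. The share of all genes that separated there was not counted, and 32.4% of genes were called between the tissues at that age. The log2 fold change of fibroblasts over whole heart was 0.05, -0.57, 0.09, -1.29 and -0.21 from the youngest age to the oldest, each with an SE of at least 0.62. These errors do not show equal levels. Without fibroblast replicate 3 of 4 weeks the difference at that age was -1.82 with an adjusted p of 0.0284 by edgeR's quasi-likelihood test, and its sign at postnatal day 1, 14 weeks and 1.5 years changed with scaling or with a library left out.

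**Figure D2:**
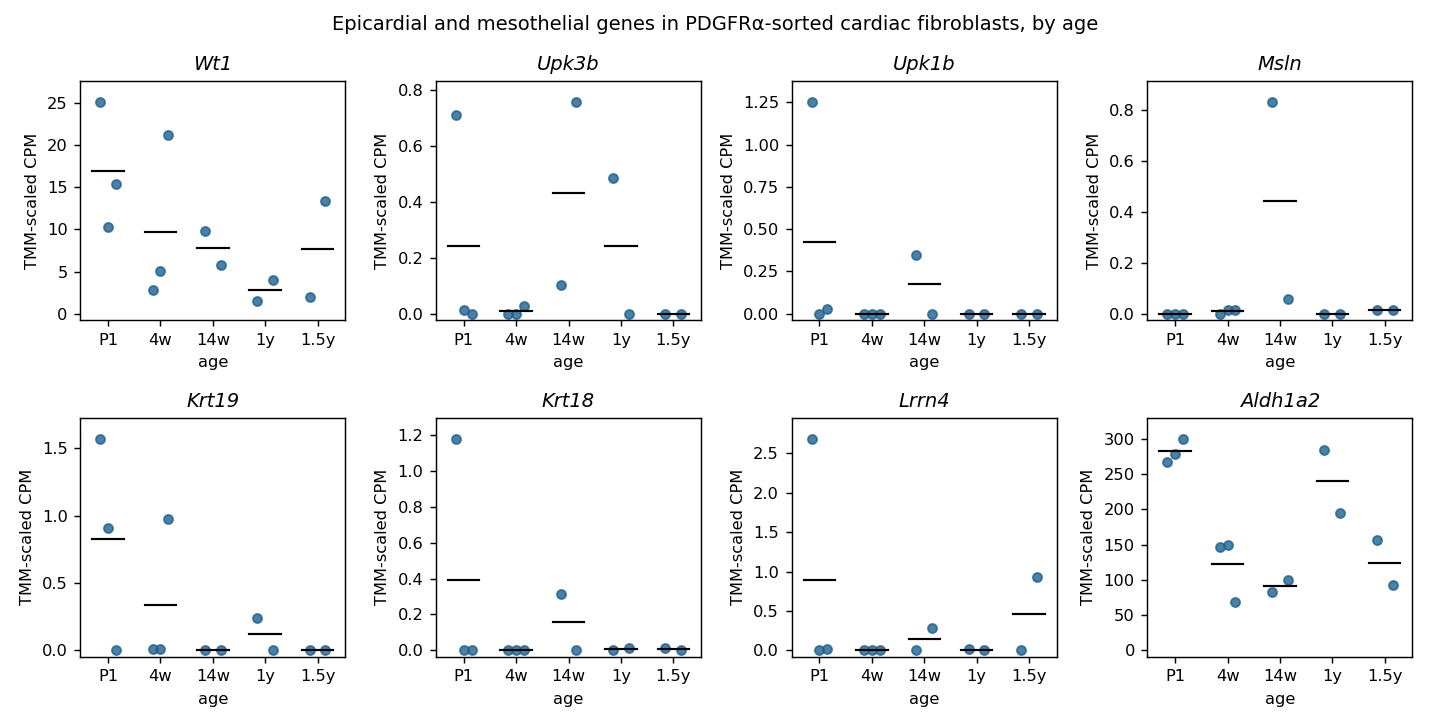
TMM-scaled CPM of the 8 genes in fibroblast libraries by age, with a point for each library and a line at the mean of the 2 or 3 libraries. Aldh1a2 is at 68.7 CPM or above in every library, and the 6 surface and keratin genes are at or near 0 in most.

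In fibroblasts, at 5 of 5 ages, the library with the most Wt1 had the least Aldh1a2. At each of the 5 ages the library with the most Wt1 had the highest sum of 9 endothelial markers (Pecam1, Cdh5, Kdr, Tek and others). For Aldh1a2 this held at 0 of 5 ages. The library with the most Wt1 also had the highest sum of cardiomyocyte markers at every age but postnatal day 1. The library with the most Aldh1a2 had the highest sum of fibroblast markers at each of the 5 ages. The endothelial sum was 747, 489 and 505 CPM at postnatal day 1, 752, 648 and 2186 CPM at 4 weeks, 1828 and 1543 CPM at 14 weeks, 521 and 735 CPM at 1 year, and 341 and 1523 CPM at 1.5 years. Replicate 3 of 4 weeks and replicate 5 of 1.5 years were thus high in Wt1 and in endothelial markers and low in Aldh1a2. Across the 12 libraries, which all share their ages and preparation, Pearson's r between Wt1 and Aldh1a2 was -0.17 on log2 CPM. For deviations from the age means it was -0.92. With 2 libraries at an age, the 2 deviations of a gene are equal and opposite, so the 12 are not independent. Neither r nor the matches at 5 of 5 ages were set against other genes. The part of endothelial, cardiomyocyte and fibroblast RNA in these values was not tested. In whole heart the endothelial sum lay between 622 and 1369 CPM.

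**Figure D3:**
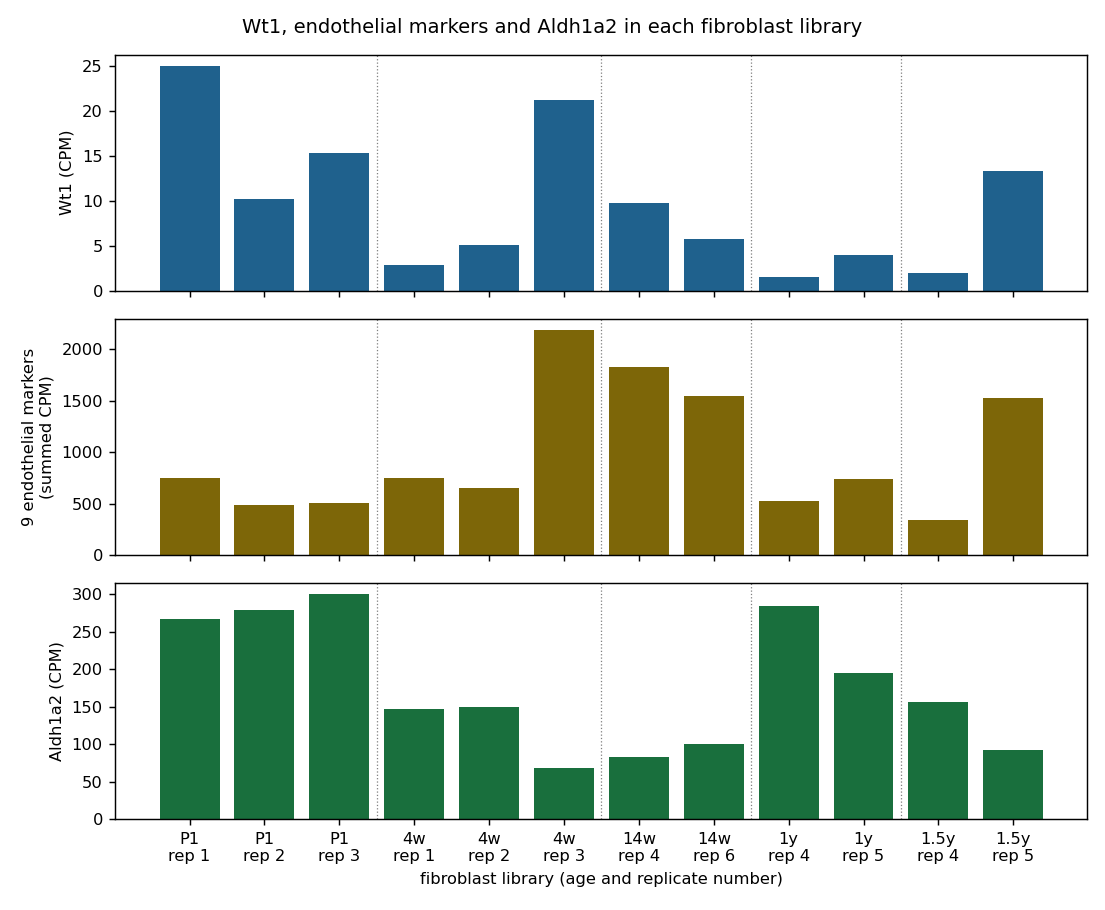
Wt1, the sum of 9 endothelial markers and Aldh1a2, in CPM, in each of the 12 fibroblast libraries, with dotted lines between ages. Within each age the tallest Wt1 bar and the tallest endothelial bar belong to the same library.

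With age, Aldh1a2 was the one member of the 7 tested that was called in fibroblasts, and the others were not shown to be unchanged. The level of Aldh1a2 fell from 282 ± 16.4 CPM in newborns to 122 ± 46.2 CPM at 4 weeks (SD, n = 3 each). At the same step the sum of 8 cardiomyocyte markers in fibroblast libraries went from 808 to 99.8 CPM (6 of 8 called lower), that of 7 fibroblast markers from 37660 to 59710 CPM (4 called higher and 1 lower), and the mitochondrial share from 8.13% to 2.57%. Their part in the Aldh1a2 values was not tested. The fall of Aldh1a2 was a log2 difference of -1.21 (SE 0.28) with an adjusted p of 0.00979 by edgeR's quasi-likelihood test with Benjamini-Hochberg adjustment, in which 15.5% of all 18759 genes were called. The 3 libraries of 4 weeks were all below the 3 of postnatal day 1. The 2 of 1 year were above those of 4 weeks, of 14 weeks and of 1.5 years. The share of all genes that separated in these ways was not counted. No member had every library of postnatal day 1 above all later fibroblast libraries, as 7.83% of the genes tested did. The step to 1 year was not tested on its own. At 1.5 years it was lower than at postnatal day 1, with a log2 difference of -1.18 (SE 0.32), with an adjusted p of 0.0220 (16.3% of genes called). That call was lost without fibroblast replicate 5 of 1.5 years, where the value was -0.86 (adjusted p = 0.207), and without replicate 3 of postnatal day 1, where it was -1.14 (adjusted p = 0.0542). Over all ages Aldh1a2 had an adjusted p of 0.00583, in a test that called 19.9% of genes. Between 14 and 4 weeks and between 1.5 years and 14 weeks no member was called by edgeR or by DESeq2, 0 had an unadjusted p under 0.05, and 3.87% and 2.72% of genes were called.

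Wt1 in fibroblasts was 16.9 ± 7.52 CPM (SD, n = 3) at postnatal day 1 and 9.74 ± 10.01 CPM (n = 3) at 4 weeks, and the difference of -0.79 (SE 0.78) on the log2 scale did not pass (adjusted p = 0.557, edgeR's quasi-likelihood test). The other 5 tested members had too few reads in fibroblasts for a fold change with age to be given.

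In whole heart all 8 genes had their highest mean at postnatal day 1, and 6 had their lowest at 14 weeks. The share of all genes with these extremes was not counted. The 8 genes were measured in the same hearts, so a shared direction, here and below, is not 8 independent results. The sum of 8 cardiomyocyte markers was 41404 CPM at postnatal day 1, 68577 CPM at 4 weeks and 71528 CPM at 1.5 years, and that of 6 macrophage markers was 40.7, 218 and 267 CPM, with 6 of 6 called higher at both later ages. Their part in the levels of the 8 genes was not tested. Krt18 showed the widest gap, with 9.15, 8.03 and 9.37 CPM at postnatal day 1, 0.829, 0 and 4.72 CPM at 4 weeks, 0.516, 0.193 and 0.513 CPM at 14 weeks, 1.77, 3.20 and 2.73 CPM at 1 year, and 1.27, 0.0477 and 0.955 CPM at 1.5 years. Its 3 youngest hearts were above all 12 later ones. The same held, by narrow margins, for Msln and Upk1b, so for 3 of 8 members, against 10.3% of the 17995 genes tested. On the joint scale Msln overlapped, with 17.1 CPM in the lowest newborn heart and 17.6 CPM in the highest of 1.5 years, which leaves 2 of 8.

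**Figure D4:**
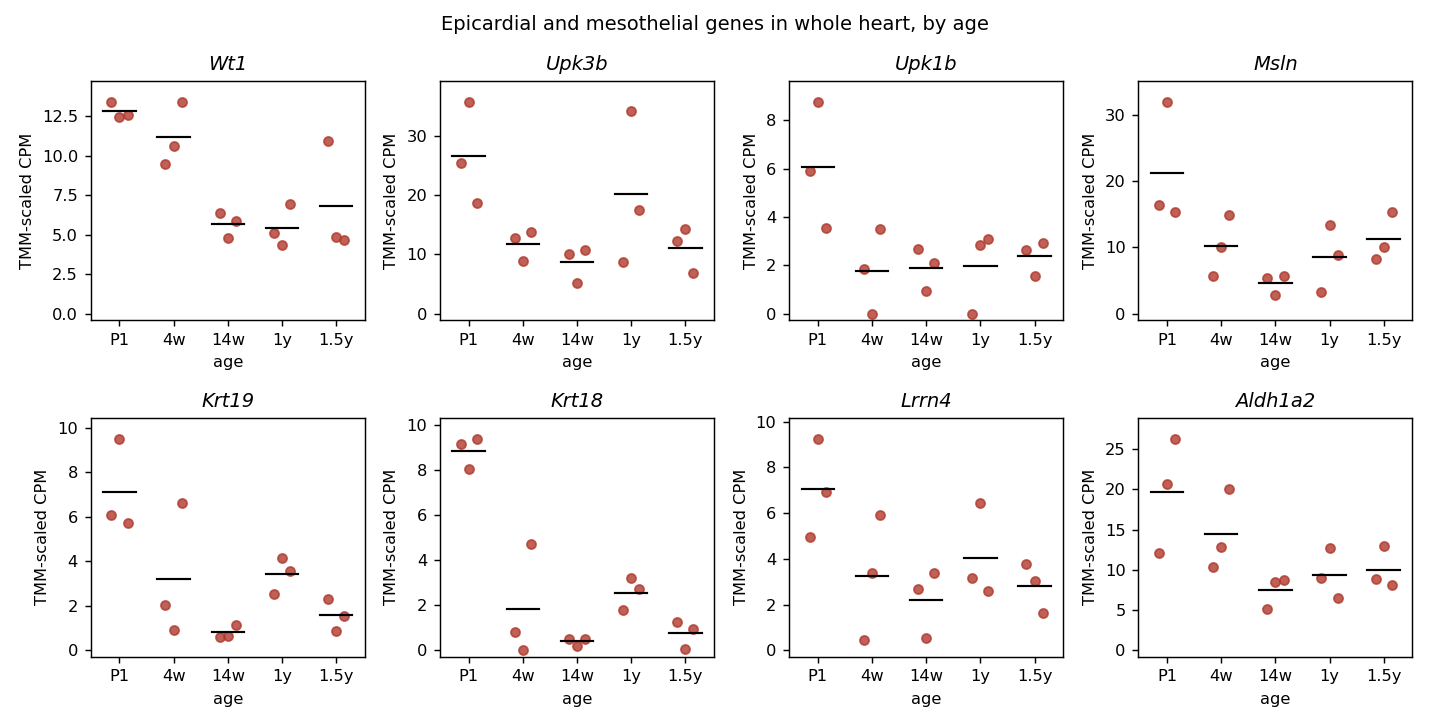
TMM-scaled CPM of the 8 genes in whole heart by age, with a point for each whole heart library and a line at the mean of 3. Every mean is highest at postnatal day 1, and Upk3b of 1 year ranges from 8.81 to 34.2 CPM.

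Among the membrane proteins, Upk3b was 25.5, 35.7 and 18.7 CPM at postnatal day 1, 12.7, 8.91 and 13.8 CPM at 4 weeks, 10.2, 5.16 and 10.7 CPM at 14 weeks, 8.81, 34.2 and 17.5 CPM at 1 year, and 12.3, 14.2 and 6.81 CPM at 1.5 years. Msln was 16.4, 31.9 and 15.4 CPM at postnatal day 1, 5.75, 10.03 and 14.9 CPM at 4 weeks, 5.45, 2.78 and 5.71 CPM at 14 weeks, 3.28, 13.4 and 8.90 CPM at 1 year, and 8.26, 10.1 and 15.4 CPM at 1.5 years. For Upk3b replicate 2 of 1 year reached the level of the youngest hearts, and for Msln the highest old heart nearly did. Upk1b was 5.92, 8.75 and 3.55 CPM at postnatal day 1 and between 0 and 3.50 CPM in the 12 later hearts. Lrrn4 was 4.98, 9.25 and 6.91 CPM at postnatal day 1 and between 0.478 and 6.43 CPM in the later hearts, with overlap. Upk1b had 0 counts in replicate 2 of 4 weeks and replicate 1 of 1 year beside 248 and 155 counts in other hearts of the same ages, and Krt18 had 0 counts in replicate 2 of 4 weeks beside 334 in replicate 3.

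Krt19, the other keratin, was 6.10, 9.51 and 5.72 CPM at postnatal day 1, 2.04, 0.917 and 6.61 CPM at 4 weeks, 0.623, 0.634 and 1.17 CPM at 14 weeks, 2.54, 4.17 and 3.57 CPM at 1 year, and 2.32, 0.890 and 1.55 CPM at 1.5 years. Only replicate 3 of 4 weeks overlapped the youngest hearts. That heart was the highest of its age for 8 of 8 members, as replicate 2 was for 6 of 8 at 1 year and for 5 of 8 at postnatal day 1.

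Tested over all 5 ages in whole heart, 5 of the 8 members passed (Wt1, Aldh1a2, Upk3b, Msln and Krt19), where 34.3% of all genes did. Their adjusted p ran from 0.0157 for Krt19 to 0.0286 for Aldh1a2, and Krt18 missed at 0.0587 (edgeR's quasi-likelihood test with Benjamini-Hochberg adjustment). Without heart replicate 2 of postnatal day 1 the count was 1, without replicate 1 of that age 3, and without replicates 1 and 2 of 14 weeks, each in turn, 3 and 2. At 4 weeks against postnatal day 1 all 8 log2 fold changes were negative, from -0.20 (SE 0.34) for Wt1 to -2.26 (SE 1.26) for Krt18, and 0 were called by edgeR's quasi-likelihood test, which called 18.2% of genes. For 2 members (Upk3b and Msln) the unadjusted p was under 0.05, and DESeq2 called 1, Upk3b. Upk3b and Msln were called at that step with library-size scaling, under which the median over all genes was itself -0.60 against -0.09 with TMM.

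At 1.5 years against postnatal day 1 all 8 were again lower and 3 were called, where 31.8% of genes were called in all and 16.3% as lower. Krt19 differed by -2.16 (SE 0.69, adjusted p = 0.0244), Upk3b by -1.26 (SE 0.43, adjusted p = 0.0350) and Aldh1a2 by -0.98 (SE 0.36, adjusted p = 0.0468) on the log2 scale in edgeR's quasi-likelihood test. Krt18 at -3.55 (SE 1.33, adjusted p = 0.0519) and Wt1 at -0.91 (SE 0.34, adjusted p = 0.0539) just missed the threshold. Without heart replicate 3 of 1.5 years or replicate 2 of postnatal day 1 none was called, and without replicate 1 of postnatal day 1 the count was 1. Without replicate 1 of 1.5 years Wt1 passed, at -1.42 (adjusted p = 0.0038) in the same test. The signs stayed negative for all 8 with each scaling, while library-size scaling, with a median over all genes of -0.75 against -0.15, called 6. Reads from the mitochondrial genome took 12.2% of whole heart libraries at postnatal day 1 and 20.6%, 30.6%, 31.8% and 21.2% at the later ages in order.

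At 14 weeks against 4 weeks 7 of 8 log2 fold changes were negative and 0 were called by edgeR's quasi-likelihood test, with 4 at an unadjusted p under 0.05, 0 by DESeq2 and 1.61% of all genes called. At 1.5 years against 14 weeks all 8 were positive and 0 were called, with 1 at an unadjusted p under 0.05 and 12.8% of all genes called. That 1 was Msln at 1.27 (SE 0.49, adjusted p = 0.0989), which DESeq2 called.

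**Figure D5:**
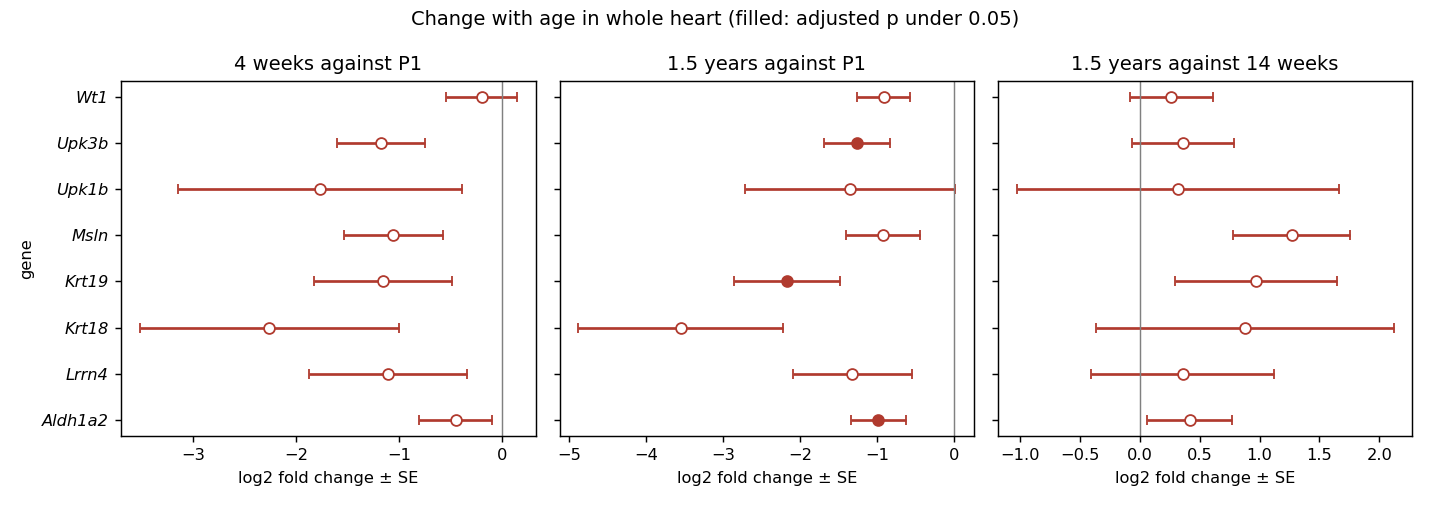
Log2 fold change ± SE of the 8 genes in whole heart for 3 comparisons of age, from edgeR's fit over all 15 hearts, with filled points where the adjusted p was under 0.05. The points of both comparisons with postnatal day 1 lie left of 0, and those of 1.5 years against 14 weeks lie right of it.

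Whether the change with age differed between the tissues could be asked of Wt1 and Aldh1a2 only, since the other 6 members had too few reads in fibroblasts. For the step from postnatal day 1 to 4 weeks 0 of these 2 were called by edgeR's quasi-likelihood test or by DESeq2, 0 had an unadjusted p under 0.05, and 7.14% of genes were called. For postnatal day 1 to 1.5 years 0 of 2 were called by either tool, 0 had an unadjusted p under 0.05, and 13.6% of genes were called. For Aldh1a2 the difference of the log2 fold changes was -0.76 (SE 0.47, adjusted p = 0.384) at the first step and -0.23 (SE 0.50, adjusted p = 0.901) over the whole span, and these errors do not show equal changes.

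Per kilobase of exon, Aldh1a2 had the highest level of the 8 in fibroblasts at every age, with a median of 67.6 CPM per kb over 12 libraries, and Wt1 the second highest, with 1.25. In whole heart the median over 15 libraries was 4.58 CPM per kb for Aldh1a2, 3.61 for Upk3b, 3.27 for Msln, 1.29 for Upk1b, 1.25 for Krt19, 1.12 for Wt1, 0.914 for Lrrn4 and 0.883 for Krt18. At postnatal day 1 the first 3 were at 8.68 ± 3.15, 7.54 ± 2.42 and 6.93 ± 3.01 CPM per kb (SD, n = 3), so their order was within the spread. Krt18 followed at 6.16 ± 0.50, above Krt19 at 3.83 ± 1.12.

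In the GRCm38 annotation Wt1 lies at chr2:105126529-105173616 (+), Aldh1a2 at chr9:71215789-71296243 (+), Upk3b at chr5:136038496-136046487 (+) and Upk1b at chr16:38773184-38800328 (-). Msln lies at chr17:25748613-25754378 (-), Lrrn4 at chr2:132868305-132880891 (-), Krt19 at chr11:100140810-100148665 (-) and Krt18 at chr15:102028180-102032027 (+). The antisense gene Wt1os, on the other strand, starts 19 bases from the start of Wt1 and runs away from it, so the annotated genes do not share bases. Wt1os had 100, 104 and 67 counts in the hearts of postnatal day 1 and at most 5 in the 12 later hearts, and passed the test over all ages in whole heart (adjusted p = 0.0320, edgeR's quasi-likelihood test). In fibroblasts it was above 3 counts in 4 of 12 libraries.

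Of 12 other mesothelial genes, 10 had a row. In whole heart 9 were tested, and 0 rose and 3 fell from postnatal day 1 to 4 weeks, where 18.2% of all genes were called, with a median log2 fold change of -1.10 against -0.09 over all genes. Ezr, which encodes ezrin, a linker of membrane and actin, fell by 0.92 (SE 0.16) on the log2 scale. In fibroblasts 2 of 8 rose and 0 fell at that step, where 15.5% of all genes were called, with a median of -0.48 against 0.0039. Ezr rose there from 12.2 ± 2.32 to 53.2 ± 12.6 CPM (SD, n = 3), and Prg4, which encodes the lubricant proteoglycan 4, rose from 9.71 ± 3.23 to 40.8 ± 7.69 CPM. Prg4 was at 377 ± 14.8 CPM (n = 2) in fibroblasts of 14 weeks and 9.16 ± 1.39 CPM (n = 3) in hearts of that age. Compared with whole heart, 1 of 9 of these genes was higher in fibroblasts and 2 lower at postnatal day 1, near the 32.3% of all genes called there. The higher one was Prg4.

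Of 12 genes of epicardial development, all 12 were tested in both tissues. From postnatal day 1 to 4 weeks 6 fell and 0 rose in fibroblasts, and 4 fell and 1 rose in whole heart, beside 15.5% and 18.2% of all genes called. Gata4 and Gata6, zinc finger factors of heart development, were both called lower in fibroblasts, with log2 differences of -1.03 (SE 0.18) and -0.68 (SE 0.13), and Gata6 also in whole heart, at -1.34 (SE 0.15). Tcf21, a factor of epicardial cells and fibroblasts, was at 294 ± 70.9 CPM in fibroblasts of postnatal day 1 and at 204 ± 23.5 CPM at 4 weeks (SD, n = 3 each) and did not pass (adjusted p = 0.0557, edgeR's quasi-likelihood test). The gene that rose in whole heart was Podxl, which encodes podocalyxin, a surface sialomucin that vessel endothelium also carries.

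Of 19 other genes of retinoic acid supply and response, 18 had a row. From postnatal day 1 to 4 weeks 4 rose and 2 fell of 18 tested in fibroblasts, and 4 rose and 2 fell of 16 in whole heart, beside 15.5% and 18.2% of all genes called, with medians of 0.15 against 0.0039 and 0.43 against -0.09 over all genes. Aldh1a1, another retinal dehydrogenase, rose in fibroblasts from 51.4 ± 11.1 CPM at postnatal day 1 to 80.7 ± 4.17 CPM at 4 weeks (SD, n = 3), while Aldh1a2 fell. The receptor gene Rarg was called higher in fibroblasts of 4 weeks, with a log2 difference of 1.32 (SE 0.30). In whole heart Dhrs3, which turns retinal back into retinol, was called higher at 4 weeks by 1.40 (SE 0.26), and so was the receptor gene Rxrg. Compared with whole heart, 6 of 18 were higher in fibroblasts and 2 lower at postnatal day 1 (32.3% of all genes called), and 9 were higher and 2 lower at 1.5 years (38.9% of all genes called).

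Of 11 other keratin genes 3 had a row (Krt10, Krt20 and Krt80), and of 3 other uroplakin genes 1 (Upk1a). In fibroblasts 0 of these 4 were called between any ages tested, and 0 were called between the tissues. In whole heart Krt80 was lower at 1.5 years than in newborns, with a log2 difference of -1.99 (SE 0.63, adjusted p = 0.0237), and Upk1a was called lower there too, at 1.98 CPM or less in every heart (edgeR's quasi-likelihood test).

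The 5 atrial marker genes, with Nppa, Myl4 and Myl7 the highest in whole heart, summed to between 654 and 1572 CPM in whole hearts of postnatal day 1 and between 67.6 and 511 CPM in later hearts. The highest atrial sums at 4 weeks and 1 year were in replicate 2 of each age, and the member genes were highest in replicate 3 of 4 weeks and replicate 2 of 1 year. In fibroblasts the atrial sum was 16.3 to 29.2 CPM at postnatal day 1 and 1.12 to 4.38 CPM later. The part of how the hearts were dissected in these values was not tested.

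Among genes outside the lists with a mean of at least 1 CPM, those most like the mean of the 8 members over the 15 whole heart libraries were Cgnl1 (Pearson's r 0.91), Megf6 (0.89), Erbb2 (0.88), Yipf5 (0.88) and Myef2 (0.88). For deviations from the age means they were Sulf1 (0.89), Rnf14 (0.86), Sfrp1 (0.85), Znhit2 (0.84) and Cgnl1 (0.83). These values are the highest of 13228 genes and describe these libraries. Each member's own r with the other 7 ran from 0.46 for Upk1b to 0.88 for Krt19 over the libraries, and from 0.19 for Aldh1a2 to 0.81 for Krt19 over the deviations. In fibroblasts only Wt1 and Aldh1a2 had a mean of at least 1 CPM, and the genes nearest to the mean of this unlike pair over 12 libraries were Gtf2ird1 (0.98), Slc38a5 (0.96), Grik1 (0.96), Ank3 (0.95) and Fgfr2 (0.95).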

How the data were processed

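PolyA RNA of whole hearts and PDGFRα-sorted cardiac fibroblasts was sequenced by the authors as single-end reads, mapped with STAR 2.5.3a to mm10 and counted per gene with STAR's gene counts. The annotation and the strand column are not given in the sources used here. The deposited values were raw counts of 27 libraries. All columns were used, with groups from the labelled tissue and age.

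Genes were filtered with filterByExpr, scaled by TMM and tested with edgeR 4.0.16 (glmQLFit and glmQLFTest, R 4.3.3) on 18759 genes in fibroblasts, 17995 in whole heart and 20650 jointly. A gene was called at a Benjamini-Hochberg adjusted p under 0.05, and SE was the log2 fold change over the square root of F. The fits were tested on simulated data for 3 comparisons only (4 weeks against postnatal day 1 in each tissue, and the tissues at postnatal day 1). For fibroblasts at 4 weeks against postnatal day 1, over 17939 genes, 63.5% of 200 genes changed 4-fold were recovered. The changed genes were drawn from those with a mean above 1 CPM, which in fibroblasts covers only Wt1 and Aldh1a2 among the members. Lengths were exon unions of the GENCODE annotation on GRCm38.

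Alternatives were DESeq2 1.42.0, median-of-ratios scaling, library size only (also without the mitochondrial genome, added after seeing the data), no filter, only the groups compared, a replicate block, an adjusted p under 0.01 for the tests over all ages, and each library left out. The genes, lists and tests were chosen with earlier results of these data known. All member genes with a row were named, and from each other list at most 4 genes per tissue by mean CPM, besides counts over the whole list. The genes most like the members were the 5 of highest r per tissue. The methods give separate animals at each age, and how many made up a library is not given in the sources used here. Krt8 was not analysed here, and a gene of the retinoic acid list is not reported here by name.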

Additional observations from a re-analysis of the deposited data

How the results depend on the processing

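Over both tissues, their comparison and the difference of their age changes, 100 counts of called members under settings other than a left-out library stayed within 1.5 times and 11 did not. Of the 27 member fold changes that turned their sign under an alternative, 0 passed the test in either form. With DESeq2 the count in whole heart was 1 at 4 weeks against postnatal day 1, 5 at 1.5 years against postnatal day 1 and 1 at 1.5 years against 14 weeks, the count between tissues at postnatal day 1 was 5, and that of the tissue difference in the first age step was 1, Lrrn4, which had too few fibroblast reads for an age change. With library size only, with or without the mitochondrial genome, whole heart gave 2 at 4 weeks and 6 at 1.5 years against postnatal day 1. With only the groups compared it gave 1 at 4 weeks. Library size only also moved the median over all genes downward at both steps. The shares of all genes called under these alternatives, with a replicate block or with a library left out are not given here. At an adjusted p under 0.01, 0 members passed over all ages in whole heart. The cause was not tested.

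The replicate numbers showed no pairing, with a mean correlation of deviations between same-numbered libraries of 0.0057 in fibroblasts, -0.0037 in whole heart and -0.0056 between tissues. The value between tissues rests on 6 pairs of postnatal day 1 and 4 weeks, since later fibroblasts and hearts share no numbers. It does not settle whether samples of both tissues came from the same animals, and the main tests between tissues treated them as independent. With a replicate block, 1 member was called in fibroblasts at 4 weeks against postnatal day 1, 5 in whole heart over all ages, 4 at 1.5 years against postnatal day 1, 3 between tissues at postnatal day 1 and 6 at 4 weeks. The Wt1 difference between tissues at postnatal day 1 was then -0.0035. Other comparisons shared too few numbers for a block, or gave 0.

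With 1 library left out in turn, counts ran from 0 to 1 in fibroblasts at 1.5 years against postnatal day 1, and in whole heart from 1 to 6 over all ages, 0 to 1 at 4 weeks and 0 to 2 at 1.5 years against postnatal day 1. Between tissues they ran from 3 to 6 at postnatal day 1, 6 to 8 at 4 weeks, 2 to 4 at 14 weeks, and 3 to 5 at 1 year and at 1.5 years.

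For Wt1 the range over left-out libraries was -0.762 to 0.959 in fibroblasts at 14 against 4 weeks (0.0046 without replicate 6 of 14 weeks), -1.996 to 0.784 at 1.5 years against 14 weeks (0.410 without replicate 4 of 14 weeks), and -0.251 to 0.474 in whole heart at that last step. Between tissues it was -0.346 to 0.310 at postnatal day 1, -0.315 to 0.411 at 14 weeks and -2.16 to 0.591 at 1.5 years (0.342 without heart replicate 1). For Lrrn4 in whole heart it was -1.08 to 0.181 at 14 against 4 weeks and -0.105 to 0.811 at 1.5 years against 14 weeks, and for Upk1b -0.480 to 1.05 and -0.0088 to 0.644. For the tissue difference in the change to 1.5 years it was -0.673 to 0.112 for Aldh1a2 and -2.21 to 0.537 for Wt1. With library size only, Upk1b was -0.140 at 14 against 4 weeks, Wt1 between tissues -0.0089 at postnatal day 1 (-0.0723 without the mitochondrial genome) and 0.138 at 1.5 years, and the tissue difference in the change to 1.5 years 0.174 for Aldh1a2 and 0.146 for Wt1. With only the groups compared, Wt1 between tissues at 14 weeks was -0.0191.

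The 6 surface and keratin genes were mostly at or under 3 counts in fibroblasts, at a median library total of 69105569 against 64467352 in whole heart, so their age changes there could not be measured. Having only 2 fibroblast libraries at each later age widened the errors of Aldh1a2 and Wt1. The floor covers counting error only, and age changes smaller than these errors were not detectable.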
